A study of Drosophila melanogaster with 9 samples.

Results

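The genes described here encode translation factors, the soluble proteins that start, extend and end protein synthesis on the ribosome. They were taken as every gene in the table of raw counts whose symbol starts with eIF, eEF, Ef1 or eRF, which gave 35 of 16492 genes. RNA was sequenced from *Drosophila melanogaster* wing imaginal discs, the larval epithelia that form the adult wing. Cells of the *dpp* domain, a stripe along the anterior side of the disc midline, were sorted by their GFP, with 3 libraries in each of 3 groups. STAT supercompetitors (hop libraries, w/+; +/+; dpp-gal4, uas-gfp/uas-hop) mis-expressed the Janus kinase Hopscotch, and Myc supercompetitors (Myc libraries, with uas-myc in that place) mis-expressed the transcription factor Myc. Control cells (gfp libraries) carried the driver and GFP without a further transgene. All larvae were wandering larvae of the third instar, and all carried w/+, dpp-gal4 and uas-gfp by the labels. The *dpp-gal4* driver sets which cells carry GFP and the transgene, so the libraries describe that stripe and each one pools cells of many discs. By the methods the discs of each genotype were dissected in triplicate, but nothing in the labels ties a library to a separate cross or day. The p-values thus measure the spread between these libraries, which may in part be technical.

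In initiation, eIF2 brings the initiator tRNA to the small ribosomal subunit, with eIF1A and the large complex eIF3 bound there, while eIF4E, eIF4G and the helicase eIF4A recognise the cap and unwind the start of the mRNA. eIF5 triggers GTP hydrolysis on eIF2, eIF2B reloads eIF2 with GTP, and eIF5B joins the large subunit. In elongation, eEF1A carries aminoacyl-tRNA to the ribosome, its exchange complex of beta, delta and gamma subunits recharges it, eIF5A relieves stalled ribosomes, and eRF1 reads stop codons at the end. Myc is known in flies and mammals for raising the expression of genes of ribosome production and translation, and both kinds of supercompetitor are known to displace wild-type neighbours in the disc.

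The libraries held 5110634 to 6104490 counts, and 12741 genes passed the filter on low counts. *hop* was at 1145 to 1432 CPM (counts per 1000000 counts of the library, after TMM scaling) in hop libraries, against 62.6 to 80.0 CPM in gfp libraries. *dm*, the gene of Myc, was at 538 to 774 CPM in Myc libraries, against 233 to 259 CPM in gfp libraries (edgeR log2 fold change 1.39, adjusted p = 0.000225). On the first principal component, which held 62.8% of the variance of the 500 most variable genes, Myc 1 lay at 0.763 of the way from the mean of the gfp to the mean of the hop libraries, while Myc 2 and Myc 3 lay at -0.222 and -0.068, and gfp 1 lay at 0.228. All 7 markers of the wing disc epithelium and the *dpp* domain were detected in every library, with summed levels of 2718 to 3385 CPM in hop, 2481 to 2682 CPM in Myc and 2496 to 2751 CPM in gfp libraries. The genes of this sum did not all go one way. In raw counts *ci* had 6662, 8144 and 9387 in hop and 5583, 5896 and 7651 in gfp libraries, and *ap* 3253, 4116 and 4223 against 2824, 3226 and 3400. *dpp* had 1046, 1121 and 1116 against 1207, 1408 and 1602, and *vg* 1228, 1290 and 1233 against 1359, 1647 and 1644. *nub*, *ptc* and *Doc1* overlapped between hop and gfp libraries. The 3 markers of the posterior compartment, which lies outside the *dpp* domain, summed to 94.6 to 112 CPM in hop, 72.0 to 82.7 CPM in Myc and 122 to 133 CPM in gfp libraries, with none of them at 0, and their part in the results below was not tested. Of these, *inv* had 247 to 348 raw counts in hop, 213 to 256 in Myc and 436 to 468 in gfp libraries. In the same order *en* had 122 to 163, 74 to 124 and 127 to 175, and *hh* had 120 to 156, 87 to 105 and 103 to 155. Hop and gfp libraries thus overlapped in *en* and *hh*.

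Translation factor genes took a larger part of the Myc libraries than of the control libraries. The 35 genes made up 2.18 to 2.24% of the raw counts of Myc libraries, against 1.51 to 1.70% of gfp libraries, and 1.68 to 1.90% of hop libraries. The Myc libraries stood above all others, while the hop and gfp ranges overlapped. *Ef1alpha48D*, the main gene of eEF1A, alone supplied 49.4 to 53.9% of the counts of the 35 genes in every library. Without it the share was 0.792 to 0.894% in hop, 1.005 to 1.034% in Myc and 0.763 to 0.857% in gfp libraries, so the Myc libraries were again above both other groups.

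**Figure D1:**
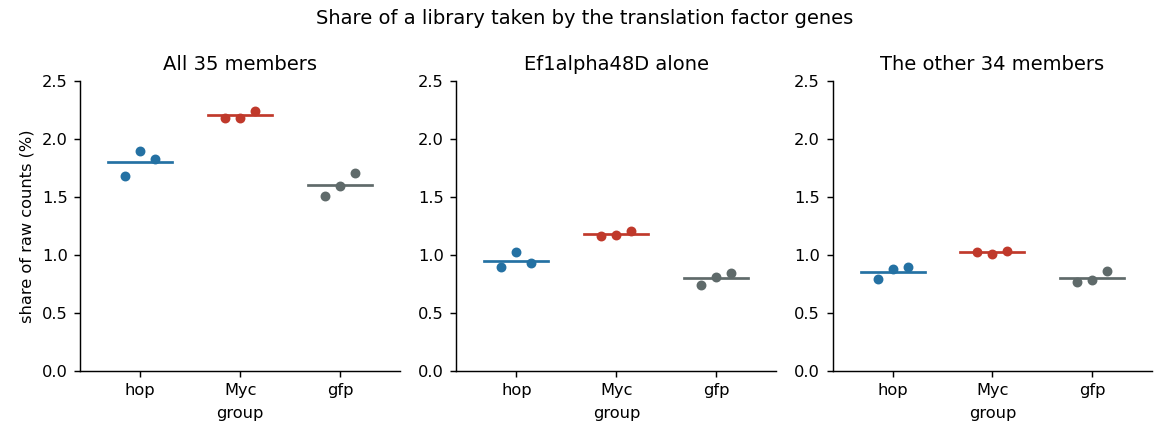
Share of the raw counts of a library in percent (y axis) for the hop, Myc and gfp groups (x axis), for all 35 translation factor genes, for *Ef1alpha48D* alone and for the other 34. Points are libraries and lines are means of 3 libraries. The Myc libraries lie at 2.18 to 2.24% for all genes, above the gfp libraries at 1.51 to 1.70%.

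Levels can be set beside each other between genes only per length, here as CPM per kb of exon. In hop libraries *Ef1alpha48D* was at 4011 ± 285, *eIF-5A* at 1588 ± 126, *Ef1beta* at 722 ± 97.7, *Ef1gamma* at 567 ± 42.9 and *eIF-4a* at 550 ± 48.7 CPM per kb (SD, n = 3). In Myc libraries the same genes in the same order were at 4964 ± 193, 1817 ± 53.0, 946 ± 89.9, 753 ± 46.1 and 561 ± 28.6 CPM per kb, and in gfp libraries at 3029 ± 105, 1212 ± 49.9, 552 ± 14.3, 447 ± 23.9 and 443 ± 28.2 CPM per kb. These 5 genes of elongation and of the cap-binding complex led in every group, and only *Ef1gamma* and *eIF-4a* could not be ranked in hop and gfp libraries, where their libraries overlapped. The subunits of eIF2 lay close together, with group means of 74.5 to 86.2 CPM per kb in hop, 96.7 to 99.2 CPM per kb in Myc and 58.7 to 85.1 CPM per kb in gfp libraries, and the 5 subunits of eIF2B, the enzyme that acts on eIF2, lay lower at 9.87 to 24.8 CPM per kb across the group means. The members at the foot of the order were *eIF4E-3*, *eIF4E-4*, *eIF4E-6* and *eIF4E-7*, with group means of 0.176 to 4.66 CPM per kb. Of the 34 pairs of neighbours in the order, 23 overlapped in their libraries in hop, 21 in Myc and 19 in gfp cells, so most neighbouring ranks do not differ beyond their spread.

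**Figure D2:**
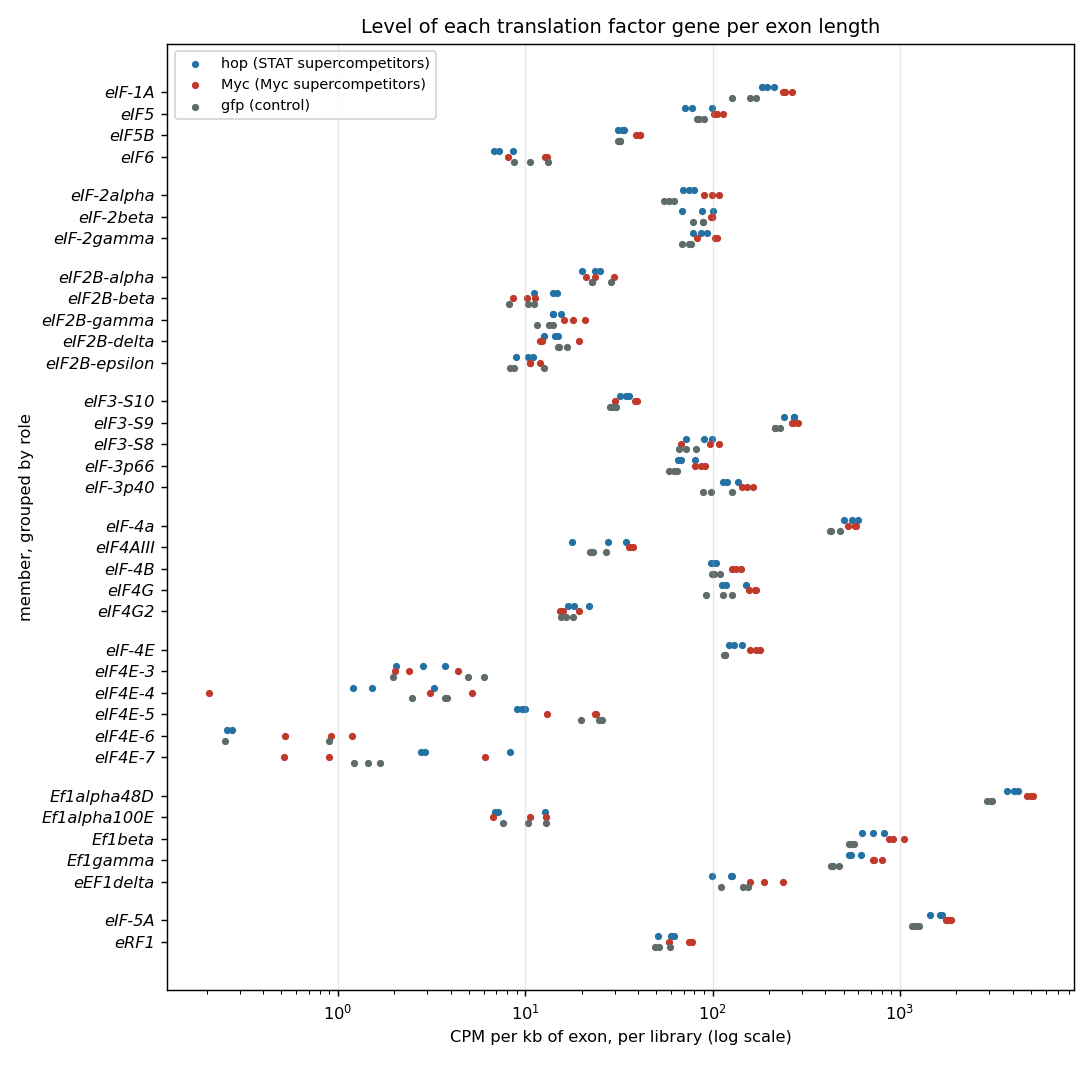
Level of each translation factor gene in CPM per kb of exon (x axis, log scale), with the genes grouped by role (y axis). Points are libraries, from top to bottom hop, Myc and gfp within a gene, and values of 0 (*eIF4E-6* in gfp 1 and hop 2) cannot be drawn. *Ef1alpha48D* lies at the top with 3029 to 4964 CPM per kb as group means.

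Of the 34 members that passed the filter on low counts, 10 were higher in Myc than in gfp cells at an adjusted p under 0.05 in edgeR, which is 10 genes against a background of 2.21% of all genes tested. None was lower, against 0.447% of all genes, and none was lower at an unadjusted p under 0.05, by DESeq2 or by limma-voom. Of all 12741 genes tested, 794 were lower at that unadjusted p. limma-voom called 10 members higher where it called 2.32% of all genes. DESeq2 called 14 where it called 3.53% of all genes, the 10 of edgeR among them with *eIF-4B*, *eIF-4a*, *eIF3-S9* and *eIF5B* besides. Over the members the median log2 fold change was 0.36 and 29 were positive, beside a median of -0.04 over all genes. In 20 members every Myc library lay above every gfp library, which held for 10.8% of all genes. The called genes were *Ef1alpha48D*, *Ef1beta*, *Ef1gamma*, *eIF-1A*, *eIF-2alpha*, *eIF-3p40*, *eIF-3p66*, *eIF-4E*, *eIF-5A* and *eIF4G*, of which 6 act in initiation and 4 in elongation, and of the complexes only eIF2B held none. All 10 were among the 22 members of at least 100 CPM, and among genes of that level 10.4% were higher in Myc cells. The count became 3 without gfp 2, where 0.4% of all genes were higher, and 6 without gfp 3, where 1.12% were. It became 7 without both gfp 1 and Myc 1, where 1.04% of all genes were higher. In Myc cells 5 of the 10 genes differed by at least 1.5-fold, and 1.7% of all genes were called higher with that fold. None of the members passed a test against that fold, which 0.0863% of all genes did.

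In STAT supercompetitors 2 of the 34 members were higher than in gfp cells, *Ef1alpha48D* and *eIF-5A*, and 1 was lower, *eIF4E-5*. The background was 3.58% of all genes higher and 3.56% lower. The median log2 fold change of the members was 0.19, with 24 positive, beside -0.02 over all genes. In 13 members every hop library lay above every gfp library, against 14.8% of all genes, and of the 22 members of at least 100 CPM 2 were called higher, where 9.73% of genes of that level were. The 2 higher calls became 0 when gfp 1, gfp 2, gfp 3, hop 2 or hop 3 was left out. In these fits 2.06, 0.546, 0.486, 3.19 and 0.777% of all genes were higher, in the same order. They became 4 without hop 1 (2.71% of all genes) or Myc 2 (4.76%), and 7 without Myc 1 (8.3%). With RLE scaling 4 were higher (4.03% of all genes) and 1 lower (3.37%). DESeq2 called 6 higher (5.66% of all genes) and limma-voom 5 (3.89%), each with 1 lower (5.04% and 3.16%). Because the Myc and hop comparisons share their gfp libraries, the values of both are given side by side and no relation between them is drawn.

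Set directly against Myc cells, 4 members were lower in hop cells, *Ef1gamma*, *eEF1delta*, *eIF-4B* and *eIF4E-5*, where 3.24% of all genes were lower. None was higher, against 3.34% of all genes, and none was higher at an unadjusted p under 0.05, by DESeq2 or by limma-voom. The median log2 fold change of the members was -0.29, and 3 of the 34 values were positive. In 17 members every hop library lay below every Myc library, which held for 13.1% of all genes, and 3 of the 22 members of at least 100 CPM were lower, where 4.67% of genes of that level were. The 4 calls became 0 without hop 1, Myc 2 or Myc 3, where 1.12, 0.791 and 0.819% of all genes were lower, in that order. They became 1 without hop 2 (1.38% of all genes) and 2 without gfp 2 (1.86%) or gfp 3 (1.92%). DESeq2 and limma-voom each called 7, where they called 4.69% and 2.65% of all genes.

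**Figure D3:**
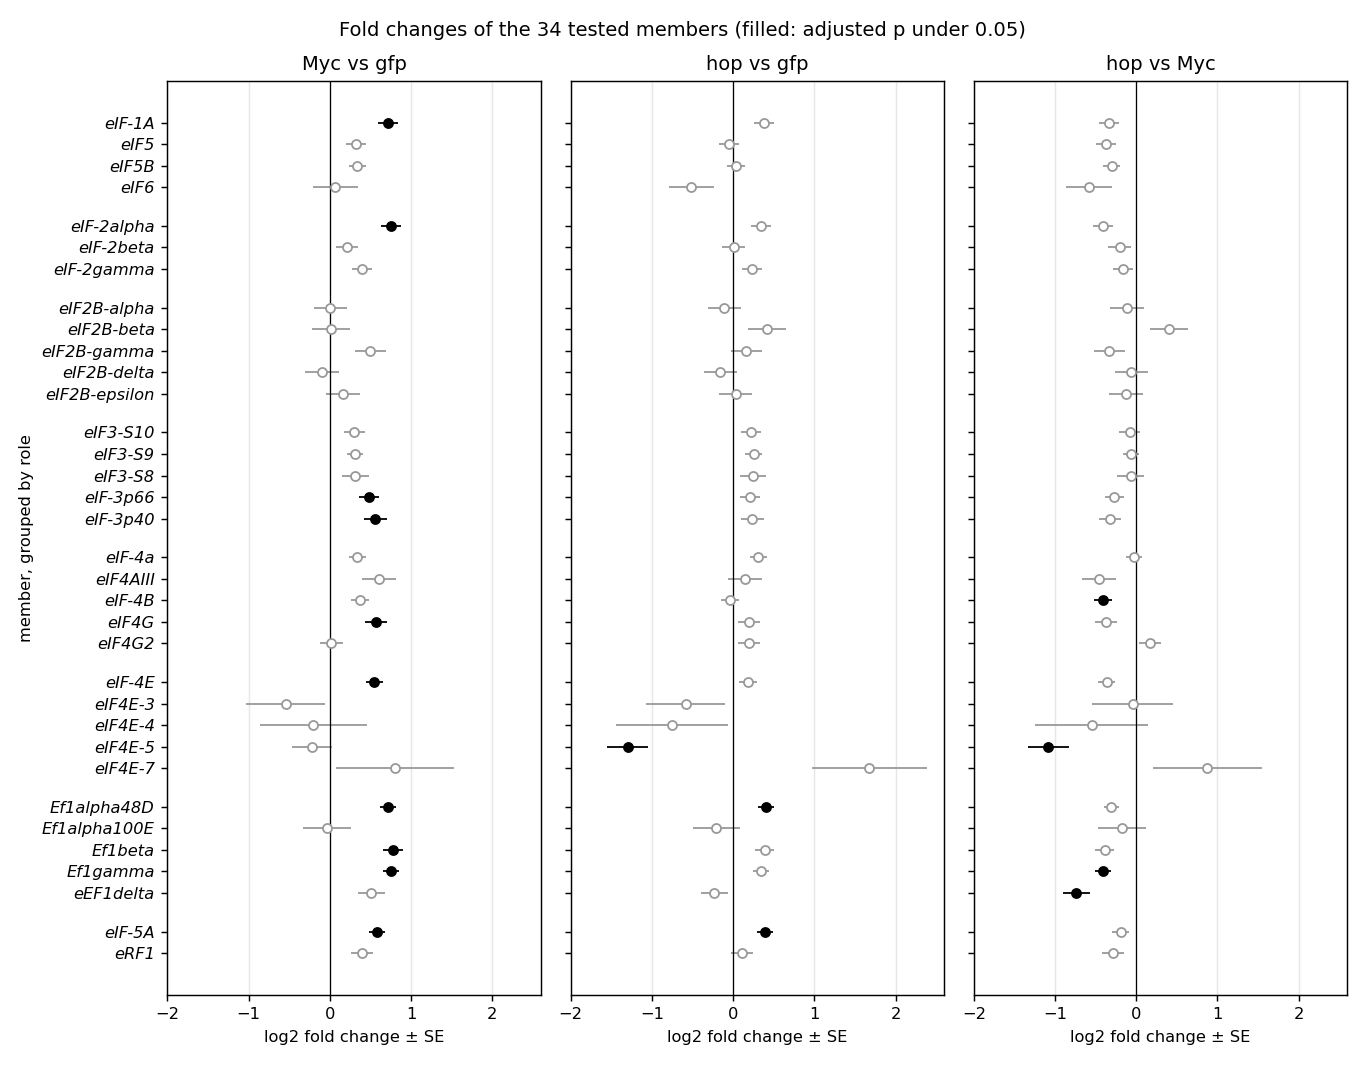
Log2 fold change of the 34 tested members (x axis, with the standard error as bars) for Myc against gfp, hop against gfp and hop against Myc, with the genes grouped by role (y axis). Filled points passed an adjusted p under 0.05 in edgeR. In the Myc panel 10 points are filled and all lie right of 0, while in the hop against gfp panel 3 are filled, with *eIF4E-5* at -1.30.

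The eEF1 genes of elongation held the members with the smallest p in Myc cells, and 3 of their 5 were called there. *Ef1alpha48D* (FBgn0284245, now eEF1alpha1; chromosome arm 2R, 11891135 to 11895762 of dm6, plus strand), which carries aminoacyl-tRNA to the ribosome, was at 9134, 10527 and 9990 CPM in hop libraries, at 12298, 12670.0 and 11725 CPM in Myc libraries, and at 7167, 7643 and 7576 CPM in gfp libraries. The 3 groups did not overlap, with Myc highest and gfp lowest. It rose 1.64-fold in Myc cells (log2 fold change 0.71 ± 0.10, SE, edgeR adjusted p = 0.0020) and 1.32-fold in hop cells (0.41 ± 0.10, adjusted p = 0.0230), and its hop to Myc difference of -0.31 did not pass in edgeR (adjusted p = 0.0665) but did in DESeq2 (adjusted p = 0.0498) and limma-voom (adjusted p = 0.0144). The call in hop cells ended without gfp 1, gfp 2, gfp 3, hop 2 or hop 3 (adjusted p = 0.0509 to 0.0989). Its paralog *Ef1alpha100E*, now eEF1alpha2, was at 18.2 to 34.02 CPM in hop, 17.9 to 34.2 CPM in Myc and 20.3 to 34.5 CPM in gfp libraries. *Ef1alpha100E* passed no test (log2 fold change -0.04 ± 0.29 in Myc and -0.21 ± 0.29 in hop cells against gfp). How reads matching both paralogs were counted is not stated and was not tested, so the level of the lower gene is the less certain.

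Of the exchange complex that reloads eEF1A, *Ef1beta* and *Ef1gamma* rose in Myc cells. *Ef1beta* (FBgn0028737; 2R, 16868222 to 16869280, plus strand), a nucleotide exchange subunit, was at 603, 687 and 790 CPM in hop, 886, 1004 and 836 CPM in Myc, and 531, 543 and 516 CPM in gfp libraries. *Ef1gamma* (FBgn0029176; 3R, 29220172 to 29222109, plus strand), the subunit that holds the complex together, was at 912, 926 and 1044 CPM in hop, 1366, 1223 and 1239 CPM in Myc, and 802, 723 and 746 CPM in gfp libraries. For both genes the 3 groups did not overlap and the order was Myc, hop, gfp. *Ef1beta* rose 1.72-fold in Myc cells (log2 fold change 0.78 ± 0.12, adjusted p = 0.00358) and *Ef1gamma* 1.69-fold (0.75 ± 0.10, adjusted p = 0.00214), and these calls and that of *Ef1alpha48D* held in every alternative except the test against 1.5-fold. Against gfp the hop values were 0.39 ± 0.12 for *Ef1beta* (adjusted p = 0.0581) and 0.34 ± 0.10 for *Ef1gamma* (adjusted p = 0.0563) in edgeR. Both passed for hop against gfp in DESeq2 (adjusted p = 0.0259 for *Ef1beta* and 0.0201 for *Ef1gamma*) and limma-voom (0.0481 and 0.0356 in the same order), and also with RLE scaling, no filter, the replicate block, the 6 compared libraries alone, or without Myc 1 or Myc 2. *Ef1gamma* was lower in hop than in Myc cells (-0.41 ± 0.10, adjusted p = 0.0305), a call that ended without gfp 2, gfp 3, hop 1, hop 2, Myc 2 or Myc 3 (adjusted p = 0.0569 to 0.102), without both gfp 1 and Myc 1 (0.0617), with the reads recovered from the second deposited table (0.0506) and in the 6 compared libraries alone (0.106).

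*eEF1delta* (FBgn0032198; 2L, 10232507 to 10234450, plus strand), the other exchange subunit, had another order. It was at 91.7, 116 and 118 CPM in hop, 148, 220.4 and 176 CPM in Myc, and 104, 135 and 143 CPM in gfp libraries, so Myc lay above both other groups and hop and gfp overlapped. It was lower in hop than in Myc cells (log2 fold change -0.74 ± 0.17, edgeR adjusted p = 0.0198), and the call ended without hop 1, Myc 2 or Myc 3 (adjusted p = 0.0572 to 0.0973). Against gfp the Myc value was 0.51 ± 0.17 (adjusted p = 0.144, and 0.0275 without Myc 1) and the hop value -0.23 ± 0.17 (adjusted p = 0.415).

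*eIF-5A* (FBgn0285952, now eEF5; 2R, 24057798 to 24059483, plus strand), which bears the modified lysine hypusine and was named as an initiation factor before its role in elongation was known, was called in both kinds of supercompetitor. It was at 1166, 1321 and 1357 CPM in hop, 1461, 1511 and 1426 CPM in Myc, and 1019, 938 and 979 CPM in gfp libraries, with no overlap between any groups. It rose 1.498-fold in Myc cells (log2 fold change 0.58 ± 0.10, edgeR adjusted p = 0.00631) and 1.31-fold in hop cells (0.39 ± 0.10, adjusted p = 0.0320), and hop and Myc differed by -0.19 ± 0.10 (adjusted p = 0.243). The Myc call ended without gfp 2 (adjusted p = 0.0654), and the hop call without gfp 1, gfp 2, gfp 3, hop 2 or hop 3 (adjusted p = 0.0591 to 0.150). *eRF1*, the release factor, was at 158, 194 and 188 CPM in hop, 243, 233 and 183 CPM in Myc, and 154, 161 and 185 CPM in gfp libraries. Its groups overlapped and it passed no test (log2 fold change 0.40 ± 0.14, adjusted p = 0.174 in Myc cells, 0.11 ± 0.14, adjusted p = 0.644 in hop cells). The annotation has 189 bases of its exons inside another gene on its strand.

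**Figure D4:**
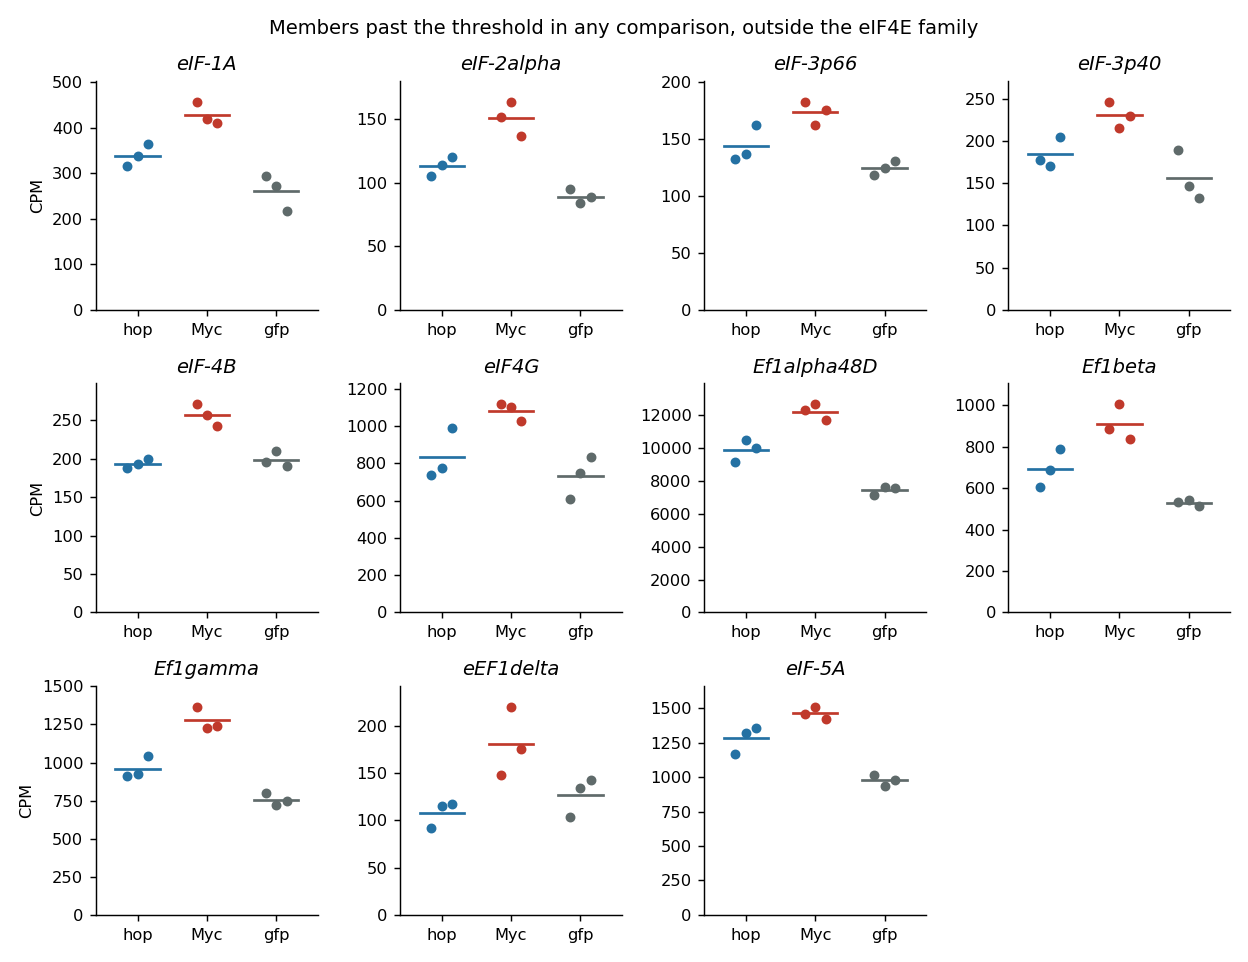
CPM after TMM scaling (y axis, from 0) of the 11 members outside the eIF4E family that passed an adjusted p under 0.05 in any comparison, in the hop, Myc and gfp groups (x axis). Points are libraries and lines are means of 3 libraries. *Ef1alpha48D*, *Ef1beta*, *Ef1gamma*, *eIF-2alpha*, *eIF-1A* and *eIF-5A* show 3 groups apart, and *eIF-4B* and *eEF1delta* show hop and gfp overlapping below Myc.

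Of the 3 subunits of eIF2, which delivers the initiator tRNA, only *eIF-2alpha* passed a test. *eIF-2alpha* (FBgn0261609; X, 16445176 to 16446993, minus strand), the subunit whose phosphorylation turns translation down under stress, was at 105, 114 and 120.4 CPM in hop, 152, 164 and 137 CPM in Myc, and 94.7, 83.9 and 89.0 CPM in gfp libraries. The 3 groups did not overlap. It rose 1.69-fold in Myc cells (log2 fold change 0.76 ± 0.12, edgeR adjusted p = 0.00507, and 0.0534 without gfp 2), while the hop value was 0.34 ± 0.12 (adjusted p = 0.0947) and the hop to Myc difference -0.41 ± 0.12 (adjusted p = 0.0558, and 0.0448 in DESeq2). It shares 192 of its 1519 bases of exon with *rngo* on the opposite strand, and since the strand setting of the counting is not known, reads there could belong to either gene. *eIF-2gamma*, the subunit that binds GTP and the tRNA, was at 174, 206 and 190.1 CPM in hop, 226, 232 and 181 CPM in Myc, and 152, 169 and 164 CPM in gfp libraries. Every hop and Myc library lay above every gfp library, but its values of 0.40 ± 0.13 in Myc (adjusted p = 0.130) and 0.23 ± 0.13 in hop cells (adjusted p = 0.267) did not pass. Of its exons, 352 bases are shared with *Su(var)3-9* on the same strand. *eIF-2beta* had log2 fold changes of 0.21 ± 0.14 in Myc and 0.01 ± 0.14 in hop cells, at 77.5 to 113 CPM in hop, 110.2 to 112 CPM in Myc and 88.2 to 99.9 CPM in gfp libraries.

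The 5 subunits of eIF2B, which exchanges GDP for GTP on eIF2, passed no edgeR test in any of the 3 comparisons. At an unadjusted p under 0.05 there was 1, *eIF2B-gamma* in Myc cells (log2 fold change 0.50 ± 0.19, adjusted p = 0.240), and by DESeq2 and limma-voom there was none. Of all 12741 genes tested, 1010 were higher in Myc than in gfp cells at that unadjusted p. The group median was 0.01 in Myc and 0.03 in hop cells against gfp, with values of -0.10 to 0.50 in Myc and -0.16 to 0.42 in hop cells. *eIF2B-epsilon*, the catalytic subunit, was at 21.9 to 26.8 CPM in hop, 25.9 to 29.3 CPM in Myc and 20.3 to 30.9 CPM in gfp libraries, and its log2 fold changes were 0.16 ± 0.21 in Myc and 0.03 ± 0.21 in hop cells. *eIF2B-gamma* was the eIF2B gene whose Myc libraries (24.9 to 32.3 CPM) lay above its gfp libraries (17.9 to 21.8 CPM). These genes had 11.2 to 42.3 CPM over all libraries and standard errors of 0.19 to 0.24, wider than the 0.10 to 0.12 of the eIF2 and eEF1 genes called in Myc cells.

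In eIF3, the scaffold that binds the small subunit, all 5 listed subunits had log2 fold changes of 0.30 to 0.56 in Myc and 0.21 to 0.25 in hop cells against gfp, and 2 were called in Myc cells. *eIF-3p40* (FBgn0022023, now eIF3h; 2L, 5051193 to 5053094, minus strand) was at 178, 171 and 204 CPM in hop, 246, 215 and 230 CPM in Myc, and 189, 147 and 132 CPM in gfp libraries. *eIF-3p66* (FBgn0040227, now eIF3d1; 3R, 23680039 to 23682317, plus strand), whose mammalian counterpart can bind the cap, was at 132, 137 and 162 CPM in hop, 182, 162 and 175 CPM in Myc, and 118, 125 and 130 CPM in gfp libraries. Every Myc library lay above every gfp library in both genes. *eIF-3p40* rose 1.48-fold (log2 fold change 0.56 ± 0.14, edgeR adjusted p = 0.0469) and *eIF-3p66* 1.39-fold (0.48 ± 0.12, adjusted p = 0.0480). Both calls lay close to the threshold. That of *eIF-3p40* ended without gfp 2, gfp 3, hop 2 or any Myc library (adjusted p = 0.0513 to 0.229), and that of *eIF-3p66* without any gfp library, hop 2 or any Myc library (0.0513 to 0.219). With upper quartile scaling both ended (0.0561 for *eIF-3p40* and 0.0574 for *eIF-3p66*), and *eIF-3p40* also ended with the recovered reads (0.0534) and *eIF-3p66* without both gfp 1 and Myc 1 (0.249). *eIF-3p40* shares 252 bases of exon with *senju* on the other strand.

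The core subunit *eIF3-S9* (eIF3b), the most abundant of the 5 in CPM, was at 645, 726 and 733 CPM in hop, 716, 765 and 712 CPM in Myc, and 577, 576 and 613 CPM in gfp libraries. Every hop and Myc library lay above every gfp library, hop and Myc overlapped, and the values of 0.31 ± 0.10 in Myc (adjusted p = 0.135) and 0.25 ± 0.10 in hop cells (adjusted p = 0.131) did not pass in edgeR. DESeq2 called it in Myc cells (adjusted p = 0.0409). The other core subunits *eIF3-S10* (eIF3a) and *eIF3-S8* (eIF3c) had 0.30 ± 0.13 and 0.32 ± 0.17 in Myc cells, with Myc and gfp libraries overlapping in both. No eIF3 gene passed in edgeR, DESeq2 or limma-voom in hop cells. At an unadjusted p under 0.05, 1 was higher in hop than in gfp and 2 were lower in hop than in Myc cells. Of all 12741 genes tested, 1516 were higher and 1664 lower in these comparisons at that p, in the same order.

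Among the factors of start codon selection and subunit joining, *eIF-1A* passed the test in Myc cells. *eIF-1A* (FBgn0026250; 3R, 18274665 to 18283005, plus strand), which holds the small subunit in its scanning state, was at 315, 337 and 364 CPM in hop, 457, 419 and 410.4 CPM in Myc, and 293, 272 and 218 CPM in gfp libraries. The groups did not overlap. It rose 1.64-fold in Myc cells (log2 fold change 0.72 ± 0.12, edgeR adjusted p = 0.00680, and 0.0502 without gfp 2), against a hop value of 0.38 ± 0.12 (adjusted p = 0.0747, and 0.0435 in DESeq2). It shares 28 bases of exon with *CG14312* on the opposite strand. *eIF5*, which activates the GTPase of eIF2, had 0.32 ± 0.13 in Myc (adjusted p = 0.255) and -0.05 ± 0.13 in hop cells (adjusted p = 0.846), but 2588 of its 3203 bases of exon are also annotated to *CG46312* on the same strand. *eIF5B*, the GTPase of subunit joining, was at 139 to 148 CPM in hop, 171 to 180.3 CPM in Myc and 139 to 141 CPM in gfp libraries. All its Myc libraries were above both other groups, and it did not pass in edgeR (0.34 ± 0.11, adjusted p = 0.124 against gfp, and -0.30 ± 0.11, adjusted p = 0.0944, for hop against Myc). DESeq2 called it in Myc against gfp (adjusted p = 0.0377), and edgeR in hop against Myc with at least 10 counts in every library (adjusted p = 0.0495). *eIF6*, which keeps free large subunits from joining, was at 7.24 to 9.11 CPM in hop, 8.58 to 13.9 CPM in Myc and 9.22 to 13.9 CPM in gfp libraries, with a hop value of -0.51 ± 0.28 (adjusted p = 0.277).

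In the cap-binding complex, *eIF4G*, the scaffold, and *eIF-4E*, which binds the cap, were called in Myc cells by edgeR, DESeq2 and limma-voom, and *eIF-4a*, the helicase, by DESeq2 only. *eIF4G* (FBgn0023213, now eIF4G1; chromosome 4, 915297 to 930715, minus strand) was at 740.3, 778 and 989 CPM in hop, 1117, 1101 and 1025 CPM in Myc, and 608, 749 and 836 CPM in gfp libraries. All Myc libraries were above both other groups, and hop and gfp overlapped. It rose 1.48-fold in Myc cells (log2 fold change 0.56 ± 0.14, edgeR adjusted p = 0.0393), and the call ended without gfp 1, gfp 2, gfp 3, Myc 2 or Myc 3 (adjusted p = 0.0524 to 0.216) and without both gfp 1 and Myc 1 (0.207). *eIF-4a* was at 1241, 1482 and 1369 CPM in hop, 1426, 1438 and 1309 CPM in Myc, and 1067, 1051 and 1180 CPM in gfp libraries. Its hop and Myc libraries overlapped (-0.03 ± 0.10, adjusted p = 0.895) and both lay above gfp, with 0.34 ± 0.10 in Myc (adjusted p = 0.119) and 0.31 ± 0.10 in hop cells (adjusted p = 0.0809) in edgeR. DESeq2 called it in Myc (adjusted p = 0.0384) and in hop cells (adjusted p = 0.0359), and limma-voom in hop cells (adjusted p = 0.0498). *eIF4AIII*, a helicase of the exon junction complex that resembles eIF4A, was at 26.4 to 51.0 CPM in hop, 52.9 to 55.9 CPM in Myc and 32.7 to 40.2 CPM in gfp libraries, with 0.60 ± 0.21 in Myc cells (adjusted p = 0.174, and 0.0449 without hop 1). *eIF4G2*, a scaffold of eIF4F known from the fly male germ line, was at 154 to 199.6 CPM in hop, 139 to 177 CPM in Myc and 141 to 163 CPM in gfp libraries, with 0.02 ± 0.14 in Myc and 0.20 ± 0.14 in hop cells, and 779 bases of its exons are shared with *CG33111* on its strand.

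*eIF-4B* (FBgn0020660; 3L, 27842669 to 27858271, minus strand), which stimulates eIF4A, differed between the supercompetitors in the raw counts. It was at 188, 193 and 199.8 CPM in hop, 271, 257 and 243 CPM in Myc, and 196, 210.2 and 190.3 CPM in gfp libraries, with Myc above the others and hop and gfp overlapping. It was lower in hop than in Myc cells (log2 fold change -0.41 ± 0.11, edgeR adjusted p = 0.0337). The call ended on leaving out any library except Myc 1 (adjusted p = 0.0526 to 0.110), without both gfp 1 and Myc 1 (0.0653) and in the 6 compared libraries alone (0.103). Against gfp the Myc libraries passed in DESeq2 (adjusted p = 0.0211), and in edgeR once genes needed a minimum of 10 counts per library (0.0380). The second deposited table, of size-factor normalized values, gave 943 reads for this gene over all 9 libraries against 11001 in the raw table, and there the difference was -0.03 (adjusted p = 0.950). The call therefore rests on reads that only the raw table gives to *eIF-4B*.

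The eIF4E family has 6 genes here. *eIF-4E* (FBgn0015218, now eIF4E1; 3L, 9399618 to 9402460, minus strand), the cap-binding protein of general translation, was at 273, 289.6 and 321 CPM in hop, 383, 353 and 400.4 CPM in Myc, and 259.7, 260.2 and 258 CPM in gfp libraries. No 2 groups overlapped, and it rose 1.46-fold in Myc cells (log2 fold change 0.55 ± 0.11, edgeR adjusted p = 0.0125), a call that ended without gfp 1, gfp 2 or gfp 3 (adjusted p = 0.0673 to 0.0851) and without both gfp 1 and Myc 1 (0.0663). In hop cells its value was 0.18 ± 0.11 (adjusted p = 0.299), and for hop against Myc -0.36 ± 0.11 (adjusted p = 0.0551, and 0.0381 in DESeq2 and 0.0425 in limma-voom). The other 5 genes had group means of 0.120 to 24.0 CPM.

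*eIF4E-5* (FBgn0035823; 3L, 7894880 to 7896009, plus strand) was the member that fell in STAT supercompetitors. It had 53, 52 and 58 counts in hop libraries, 75, 114 and 150 counts in Myc libraries, and 111, 153 and 165 counts in gfp libraries. Every hop library was below every other library, and Myc and gfp overlapped. It was lower in hop than in gfp cells (log2 fold change -1.30 ± 0.26, edgeR adjusted p = 0.0113) and lower in hop than in Myc cells (-1.08 ± 0.26, adjusted p = 0.0245), while Myc against gfp gave -0.22 ± 0.25 (adjusted p = 0.774). The hop to gfp call ended without gfp 2, gfp 3 or hop 3 (adjusted p = 0.0529 to 0.0629), and the hop to Myc call without any hop library, Myc 2 or Myc 3 (0.0694 to 0.115) or in the 6 compared libraries alone (0.0688). The 3 testis markers summed to 4.77 to 10.9 CPM in hop, 5.18 to 8.86 CPM in Myc and 11.7 to 15 CPM in gfp libraries, and the 4 germ line markers to 70.4 to 89.1, 60.9 to 87.9 and 69.7 to 101 CPM in the same order, with none at 0 in all libraries. The genes of these sums did not all go one way. In raw counts *dj* of testis had 19, 18 and 32 in hop and 58, 37 and 64 in gfp libraries. *Mst87F* overlapped there and *can* had 1 to 4. Of the germ line, *nos* had 17, 20 and 15 against 46, 32 and 39, and *bam* 78, 80 and 72 against 44, 38 and 70. *vas* and *aub* overlapped. The part of these markers in the *eIF4E-5* difference was not tested. In sorted bulk cells fewer cells of a type and less RNA per cell cannot be told apart.

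*eIF4E-7* (X, 1158599 to 1162389, minus strand) depended on a library. It had 73, 27 and 26 counts in hop libraries, 56, 4 and 9 counts in Myc libraries, and 13, 16 and 13 counts in gfp libraries. Every hop library was above every gfp library, and in the Myc group Myc 1 was near the hop libraries while Myc 2 and Myc 3 were below all others. With all libraries it passed no test (log2 fold change 1.68 ± 0.71, adjusted p = 0.156 for hop against gfp, and 0.88 ± 0.68, adjusted p = 0.446 for hop against Myc). Without Myc 1 it was higher in hop than in Myc cells (2.68, edgeR adjusted p = 0.00408) and than in gfp cells (1.71, adjusted p = 0.0183). In that fit 10.7% of all genes were higher in hop than in Myc cells and 8.3% higher than in gfp cells. In the 6 compared libraries alone it was also higher in hop than in gfp cells (1.68, adjusted p = 0.0249). Myc 1 is also the Myc library that lay toward the hop libraries on the first principal component.

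*eIF4E-3*, known from male meiosis in flies, had 12 to 21 counts in hop, 10 to 28 counts in Myc and 12 to 41 counts in gfp libraries, and *eIF4E-4* had 7 to 18, 1 to 33 and 14 to 25 counts in the same order. Neither passed a test (hop against gfp -0.59 ± 0.49 and -0.75 ± 0.68). *eIF4E-6* had 0 to 5 counts per library and did not pass the filter. It was at 0 counts in gfp 1 and hop 2, which allows up to 3 counts, or 0.570 and 0.515 CPM of unscaled counts, for counting error only.

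**Figure D5:**
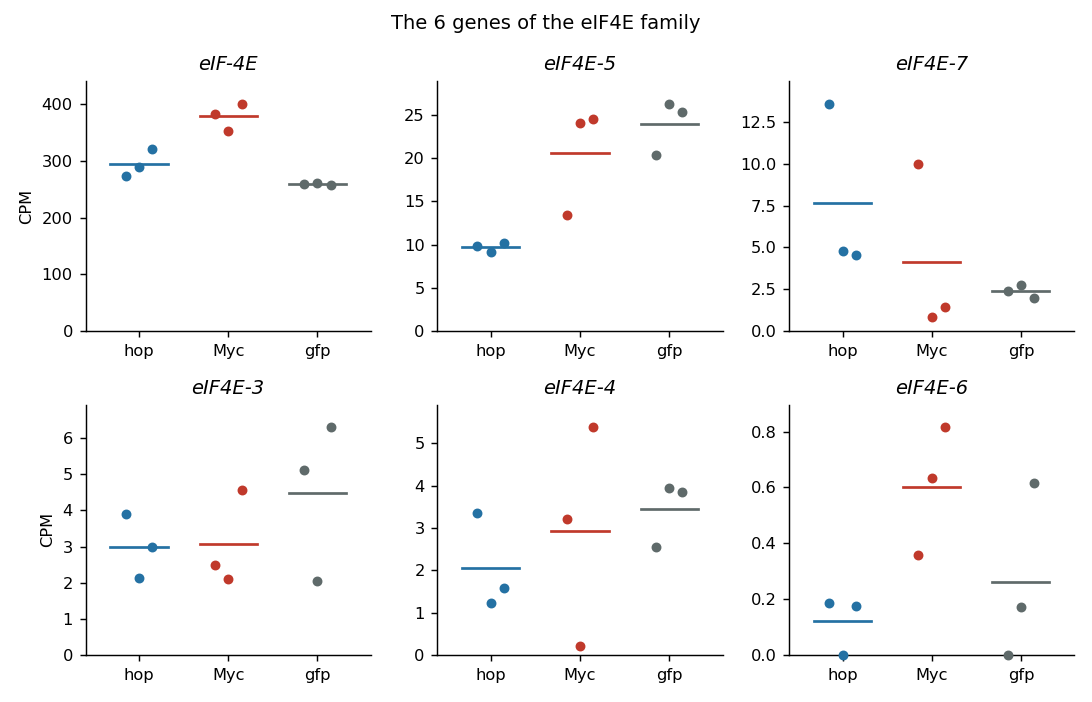
CPM after TMM scaling (y axis, from 0, a scale of its own in each panel) of the 6 eIF4E genes in the hop, Myc and gfp groups (x axis). Points are libraries and lines are means of 3 libraries. *eIF-4E* is highest in Myc libraries, *eIF4E-5* is at 9.18 to 10.2 CPM in hop libraries against 20.3 to 26.3 CPM in gfp libraries, and *eIF4E-7* in Myc 1 stands at 10.01 CPM, apart from the other Myc libraries.

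Other genes of translation, outside the symbol rule, were read from the same fit. Of 32 such genes in the table, 7 were higher in Myc cells against gfp, where 2.21% of all genes were, and 3 were higher in hop cells against gfp, where 3.58% of all genes were. Among genes of at least 100 CPM these shares were 10.4% and 9.73%, and the 32 genes were not split by level. None of the 32 was lower in Myc or hop cells against gfp, beside 0.447% and 3.56% of all genes, and none passed for hop against Myc, beside 3.24% of all genes lower (edgeR, with 11 lower at an unadjusted p under 0.05 for hop against Myc and 0 by DESeq2 or limma-voom). At that unadjusted p 1664 of all 12741 genes tested were lower in hop than in Myc cells. Against gfp none of the 32 was lower at that p or by DESeq2 in either comparison. Over all genes 794 were lower at that p in Myc and 1668 in hop cells. The median log2 fold change of the 32 genes was 0.36 in Myc and 0.16 in hop cells. *EF2*, which moves the ribosome along the mRNA, was at 2869.9 ± 348 CPM in Myc cells and 1968 ± 196 CPM in gfp cells (SD, n = 3 each, log2 fold change 0.54, adjusted p = 0.0257). *Elf*, the gene of eRF3, the GTPase partner of eRF1, was at 491 ± 34.98 CPM in Myc cells and 329 ± 35.97 CPM in gfp cells (0.58, adjusted p = 0.0160), and *pix*, the ribosome recycling factor ABCE1, was at 154 ± 13.0 CPM in Myc and 101 ± 4.52 CPM in gfp cells (0.61, adjusted p = 0.0125). Also higher in Myc cells were *Adam* and *Trip1* (both eIF3 subunits, log2 fold changes 1.04 and 0.74), the poly(A)-binding protein gene *pAbp* (0.51) and the mRNA-binding *larp* (0.51). In hop cells *pix* (0.47, adjusted p = 0.0306), *larp* (0.41, adjusted p = 0.0440) and *Thor* were higher. *Thor*, the eIF4E-binding protein that holds cap-dependent initiation back, was at 23.0 ± 4.47 CPM in hop, 19.4 ± 3.28 CPM in Myc and 11.2 ± 1.05 CPM in gfp cells (hop against gfp 1.03, adjusted p = 0.0201, and Myc against gfp 0.79, adjusted p = 0.101).

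Of 87 cytosolic ribosomal protein genes tested, 67 were higher in Myc cells (median log2 fold change 0.63) where 2.21% of all genes were, 9 were higher in hop cells (0.32) where 3.58% were, and 6 were lower in hop than in Myc cells where 3.24% were. Among genes of at least 100 CPM these shares were 10.4, 9.73 and 4.67%, in the same order. The ribosomal protein genes were not split by level. Of 22 aminoacyl-tRNA synthetase genes, which charge the tRNAs that eEF1A carries, 3 were higher in Myc cells, beside the same 2.21% of all genes. Against Myc cells 4 were lower in hop cells, beside 3.24% of all genes. Among genes of at least 100 CPM these shares were 10.4 and 4.67%, and the synthetase genes were not split by level. In hop cells 1 synthetase gene was lower than in gfp cells, a share near the 3.56% of all genes.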

How the data were processed

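The authors aligned paired reads to dm6 with STAR, removed duplicates with Picard and deposited HTSeq counts per gene, unnormalized, and a second table of DESeq2 normalized values (unit signal), which are counts divided by a size factor. The strand setting of the counting, the annotation release and the versions of these tools are stated in no source that was read. The labels name polyA RNA and the methods total RNA, and the pool and lane of each library are unknown. Of the values of the second table, 100% came out as whole reads within 0.02 of a read in every library, and 15 of the 35 members had the same reads in both tables.

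Counts were fitted with edgeR 4.0.16 in R 4.3.3 (filterByExpr, which kept 12741 of 16492 genes, TMM, glmQLFit and glmQLFTest, all 9 libraries, group as the factor), with Benjamini-Hochberg adjustment over all genes tested and a threshold of 0.05. Alternatives were RLE and upper quartile scaling, no filter or a minimum of 10 counts per library, limma-voom 3.58.1, DESeq2 1.42.0, glmTreat against 1.5-fold, that fold as an added threshold, the replicate number as a block, the 6 compared libraries alone, leaving out each library, and reads recovered from the second table, which called 312 genes for Myc against gfp, 882 for hop against gfp and 760 for hop against Myc, of 12951 tested. The scripts were tested on simulated data. Members with values given in every library are those with an adjusted p under 0.05 in any comparison and the most abundant in each role. Members and lists were chosen with earlier results of these data known, and *eIF4E-7* was added to them after its values were seen. Symbols were matched to gene identifiers by symbol or synonym in a BDGP6 annotation, whose release may differ from the authors', and exon lengths are unions of exons there.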

Additional observations from a re-analysis of the deposited data

How the results depend on the processing

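Of the 17 calls of single members, none changed direction in 21 alternatives, and none passed the test against 1.5-fold, where the members higher in Myc or in hop against gfp were 0, those lower in hop than in gfp 0 and those lower in hop than in Myc 0. The shares of all genes in that test were 0.0863, 0.251, 0.165 and 0.196%, in the same order. Asking also for 1.5-fold left 5 higher in Myc (1.7% of all genes), 0 higher in hop (2.99%) and 2 lower in hop than in Myc (2.93%). The 2 members higher in hop than in gfp became 4 with RLE scaling (4.03% of all genes) and 4 with no filter (3.81%). They became 6 with DESeq2 (5.66%), 5 with limma-voom (3.89%) and 6 in the 6 compared libraries alone (7.35%). The 4 members lower in hop than in Myc became 8 with upper quartile scaling (3.91% of all genes). With at least 10 counts in every library they became 10 (4.52%). They became 7 with DESeq2 (4.69%), 7 with limma-voom (2.65%), 2 with the recovered reads (2.87%) and 1 in the 6 compared libraries alone (0.981%). With a replicate block 5 were higher in hop than in gfp (7.21% of all genes) and 8 lower in hop than in Myc (6.25%). In that fit 11 were higher in Myc than in gfp (3.13%). Same-numbered libraries of different groups correlated at -0.140 to 0.392 in their deviations, and differently numbered ones at -0.3445 to 0.2188. The negative same-numbered pair was hop 3 with Myc 3 (-0.140), and the highest was gfp 1 with Myc 1 (0.392). The main fit did not pair the libraries by number, because the study describes triplicates and no pairing. Whether a number marks libraries handled together was not tested. Leaving out each library gave 3 to 11 higher in Myc (0.4 to 2.89% of all genes). In hop against gfp it gave 0 to 7 higher (0.486 to 8.3%) and 0 to 1 lower (0.431 to 6.47%). In hop against Myc it gave 0 to 1 higher (0.95 to 10.7%) and 0 to 5 lower (0.791 to 8.53%). Leaving out gfp 1 and Myc 1 together, an alternative chosen after seeing the data, gave 7 higher in Myc (1.04% of all genes). In hop against gfp it gave 6 higher (8.17%) and 1 lower (6.4%), and in hop against Myc 1 higher (10.7%) and 2 lower (8.62%). The causes were not tested. Depth and 3 libraries per group limit the lower genes, with standard errors of 0.10 to 0.17 on the log2 scale in members of at least 100 CPM and 0.19 to 0.73 below that.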

Other observations

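The second deposited table lists 3 symbols with these prefixes that the raw table does not list under those symbols. *eIF2D* had 63, 60 and 55 reads in hop, 103, 59 and 48 reads in Myc, and 66, 55 and 87 reads in gfp libraries, and *eIF3ga* had 325, 296 and 398 reads in hop, 422, 319 and 357 reads in Myc, and 329, 289 and 260 reads in gfp libraries. In the fit of the recovered reads *eIF3ga*, a subunit of eIF3, had a log2 fold change of 0.44 in Myc (edgeR adjusted p = 0.288) and 0.32 in hop cells (adjusted p = 0.304), and *eIF2D* had 0.17 (adjusted p = 0.882) and -0.10 (adjusted p = 0.872). *eIF3gb* had 0 to 4 reads per library.

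For 3 members the tables differed by more than 5% of the reads. The second table held 8.57% of the raw reads of *eIF-4B*, 90.8% of those of *eIF2B-alpha* and 94.9% of those of *eIF6*, and 99.9 to 100.1% of those of every other member. In it *eIF-4B* had 89 to 124 reads in hop, 88 to 119 reads in Myc and 87 to 125 reads in gfp libraries, with the groups overlapping.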
